A study of Mus musculus with 6 samples.

Results

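The cytosolic sulfotransferases of the liver are described here as the 10 genes Sult1a1, Sult1b1, Sult1c2, Sult1d1, Sult1e1, Sult2a1, Sult2a2, Sult2a8, Sult3a1 and Sult5a1, matched by exact symbol, out of 35976 genes in the count table. All 10 were in the table. The livers came from male mice of genotype IRE1PKO (3 libraries) and of genotype IRE1fl (3 libraries). Mice of both genotypes received the treatment labelled HFD, read here as a high-fat diet, and had been fasted for 16 h and then fed for 4 h. What PKO stands for, which Cre line was used and how old the mice were are not given in the labels; by its title, the series is about unfolded protein response signals that pass from pituitary to liver in obesity. Polyadenylated RNA was sequenced, and each value below is a count per gene or is derived from it. Whether each library is a mouse of its own is not labelled, and every p-value below therefore rests on a spread between libraries that could be technical.

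Cytosolic sulfotransferases transfer a sulfonate group from the donor PAPS (3'-phosphoadenosine 5'-phosphosulfate) to hydroxyl or amine groups of small molecules, which makes most of them more water-soluble and readier for export in bile or urine. The SULT1 enzymes act mainly on phenols, thyroid hormones, catecholamines and oestrogens, and the SULT2 enzymes on hydroxysteroids and bile acids. In mouse liver several members, among them Sult2a1, Sult2a2 and Sult3a1, are known to be expressed mainly in females, and all livers here were from males. The liver makes PAPS from ATP and sulfate, which is taken up from blood or made from cysteine.

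Library totals were 36016121 to 39008647 counts in the IRE1PKO livers and 35776219 to 39277435 counts in the IRE1fl livers. Ern1, the gene of IRE1, had 45.7, 36.6 and 44.2 CPM (counts scaled to the size of each library) in the IRE1PKO livers and 61.2, 49.3 and 60.8 CPM in the IRE1fl livers, and its log2 fold change was -0.44 (SE 0.11, edgeR adjusted p = 0.0357). Of the hepatocyte markers, 0 of 7 tested passed the test, and their summed level was 79398 to 98325 CPM in the IRE1PKO livers and 81260 to 97577 CPM in the IRE1fl livers. Most of these sums was Alb, with means of 64302 CPM in IRE1PKO and 63170 CPM in IRE1fl. For 3 of the 7 (Fgb, Hnf4a and Serpinc1) every IRE1PKO library was below every IRE1fl library, as in 15% of all tested genes. The log2 fold changes of the 7 ran from -0.44 to 0.19. All 7 stellate cell and fibroblast markers were higher, with summed levels of 412 to 445 CPM in the IRE1PKO livers and 212 to 248 CPM in the IRE1fl livers. Endothelial markers were called higher in 2 of 7 cases, with sums of 247 to 331 CPM in IRE1PKO and 214 to 234 CPM in IRE1fl. All 7 endothelial log2 fold changes were positive (median 0.45, against -0.0014 over all tested genes). Among all tested genes 5.68% were called higher and 3.86% lower. Of the cholangiocyte markers, 1 of 6 tested (Sox9) was lower, and the sums were 7.14 to 9.86 CPM in IRE1PKO and 14.6 to 17.4 CPM in IRE1fl. The gap between these sums lay in Sox9, with 7.14, 3.83 and 4.08 CPM in IRE1PKO and 12.7, 12.1 and 11.9 CPM in IRE1fl. The other 5 tested were not called, with log2 fold changes from -0.56 (Krt7) to 0.37 (Krt19). No Kupffer cell or lymphocyte marker passed among 7 of each. The Kupffer cell sums were 435 to 589 CPM in IRE1PKO and 343 to 479 CPM in IRE1fl, with all 7 log2 fold changes positive (median 0.31). The lymphocyte sums were 3.90 to 5.89 CPM in IRE1PKO and 4.10 to 5.95 CPM in IRE1fl, with 2 log2 fold changes positive and 5 negative. Both tested genes of the enterocyte list (Apoa4 and Fabp2, which hepatocytes also express) were higher, with list sums of 2603 to 6033 CPM in IRE1PKO and 518 to 773 CPM in IRE1fl. Apoa4 made up most of these sums, with means of 4033 CPM in IRE1PKO and 498 CPM in IRE1fl. Fabp2 averaged 152 CPM in IRE1PKO and 107 CPM in IRE1fl. In the same list 4 genes, Sis, Alpi, Cdx1 and Cdx2, were at 0 in every library. Vil1 had 3, 8 and 4 counts in IRE1PKO and 2, 0 and 8 in IRE1fl, and Lct had 2 counts in IRE1PKO library 1 only. The kidney list summed to 0.271 to 0.513 CPM in IRE1PKO and 1.22 to 4.45 CPM in IRE1fl. Its 1 tested gene, Lrp2, was lower and made up most of these sums. Lrp2 had 0.462, 0.217 and 0.244 CPM in IRE1PKO and 1.16, 4.23 and 1.99 CPM in IRE1fl. Umod was at 0 in every library, and Slc34a1, Slc22a6, Kap and Slc5a2 had 0 to 4 counts per library. The pancreatic acinar list had no tested gene and 5 of 7 genes at 0. The part of other cell types in the results below was not tested. In bulk tissue, fewer cells of a type and less RNA per cell cannot be told apart.

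Sult1b1 and Sult1d1 were lower in IRE1PKO livers and Sult1c2 was higher. Sult2a8, the most abundant member by counts in the IRE1fl livers, stood at 305 CPM in IRE1PKO against 676 CPM in IRE1fl, a difference that narrowly missed the threshold. Sult1a1, Sult5a1 and Sult2a8 did not pass, and Sult1e1, Sult2a1, Sult2a2 and Sult3a1 had too few counts to be tested. Together the 10 genes took 0.0558%, 0.0760% and 0.0714% of all counts in the IRE1PKO livers and 0.0917%, 0.114% and 0.125% in the IRE1fl livers. This sum was not tested, and most of the gap in it came from Sult2a8, which was not called, while the called genes Sult1b1, Sult1d1 and Sult1c2 had fewer counts than Sult2a8 in every library.

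Of the 10 members, 6 passed the filter on low counts, and 3 of them were called by edgeR at an adjusted p under 0.05 (Benjamini-Hochberg, over 14954 genes), 1 higher and 2 lower. Among all tested genes 9.54% were called, 5.68% higher and 3.86% lower. The groups did not overlap for 1 member that was higher (Sult1c2) and 3 that were lower (Sult1b1, Sult1d1 and Sult2a8); over all tested genes the groups did not overlap in 31% of cases, 16% higher and 15% lower. The log2 fold changes of the 6 ranged from -1.54 to 0.87 with a median of -0.57, 5 of them negative, against a median of -0.0014 over all tested genes. The 6 are those with enough counts, so these figures do not describe all 10 members.

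**Figure D1:**
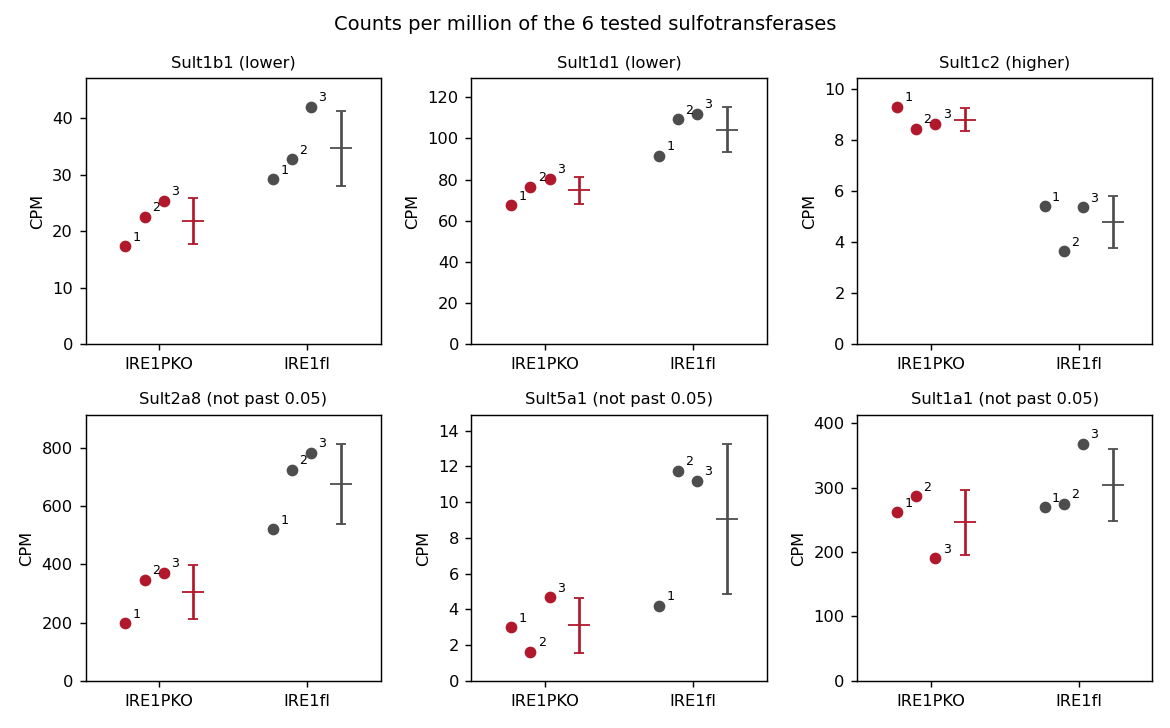
Level of the 6 tested sulfotransferases in CPM (y axis, from 0) in each library, IRE1PKO in red and IRE1fl in grey, with replicate numbers beside the points and the mean ± SD (n = 3) to the right of each group. The groups are apart for Sult1b1, Sult1d1, Sult1c2 and Sult2a8 and overlap for Sult5a1 and Sult1a1, and IRE1fl library 1 of Sult5a1 lies at 4.21 CPM, below IRE1PKO library 3.

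Sult1b1 and Sult1d1 lie side by side with Sult1e1 on chromosome 5, all on the minus strand (mm10; GENCODE M21 gene models). Sult1b1 spans chr5:87513339-87538195, Sult1d1 spans chr5:87554645-87569027 and Sult1e1 spans chr5:87575969-87591594. The promoters of the called members, for Sult1b1 the first of 2, are shown here because they are the members that moved. Each has 250 bases before and 50 after the start, from RefSeq on GRCm38.p6, the mm10 build. Capitals mark matches, on either strand, to 5 motifs. They were the nuclear receptor half-site spelled AGGTCA, the HNF4 half-site spelled CAAAGT, the HNF3 motif spelled TGTTTGC, the STAT5 motif spelled TTCNNNGAA and the TATA box spelled TATAAA. No match overlapped another in the windows shown. RefSeq's table held 8 of the 10 members.
Sult1b1, first of its RefSeq promoters, chr5:87538146-87538445, minus strand: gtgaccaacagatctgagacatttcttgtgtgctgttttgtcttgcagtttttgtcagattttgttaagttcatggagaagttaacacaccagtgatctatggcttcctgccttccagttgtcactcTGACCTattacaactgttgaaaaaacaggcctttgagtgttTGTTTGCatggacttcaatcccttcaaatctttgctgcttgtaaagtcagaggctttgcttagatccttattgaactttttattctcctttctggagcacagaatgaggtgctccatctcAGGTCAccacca
Sult1d1, chr5:87568957-87569256, minus strand: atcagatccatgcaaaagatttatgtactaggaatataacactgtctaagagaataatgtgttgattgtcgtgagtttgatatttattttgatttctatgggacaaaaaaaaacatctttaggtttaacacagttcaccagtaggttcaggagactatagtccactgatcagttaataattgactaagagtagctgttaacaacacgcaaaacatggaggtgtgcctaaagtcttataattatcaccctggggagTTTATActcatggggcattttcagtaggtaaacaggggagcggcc
Sult1c2, chr17:53845909-53846208, minus strand: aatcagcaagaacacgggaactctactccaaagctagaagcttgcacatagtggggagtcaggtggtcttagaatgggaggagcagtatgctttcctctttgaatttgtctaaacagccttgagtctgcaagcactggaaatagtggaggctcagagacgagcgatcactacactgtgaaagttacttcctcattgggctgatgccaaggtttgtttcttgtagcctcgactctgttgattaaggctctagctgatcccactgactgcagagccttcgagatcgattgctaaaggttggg

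The first Sult1b1 window held the nuclear receptor half-site at bases 128 to 133, on the strand opposite to the printed one, and as printed at bases 289 to 294. It also held the HNF3 motif at bases 169 to 175, with bases counted from 1 at the 5' end. The second RefSeq promoter of Sult1b1 (chr5:87536173-87536472), not printed here, held the HNF4 half-site at bases 276 to 281. The Sult1d1 window held the TATA box letters on the strand opposite to the printed one at bases 256 to 261, from base 6 after the start. The Sult1c2 window held none of the 5. Over 32851 promoters of the same length, the nuclear receptor half-site was found in 16.3%, the HNF4 half-site in 14.4%, the TATA box in 13.6%, the STAT5 motif in 8.3% and the HNF3 motif in 5.07%. These shares count promoters with at least 1 match, and the letter matches describe the sequence only.

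Sult1b1, whose enzyme sulfonates thyroid hormones and phenols, had 17.3, 22.6 and 25.4 CPM in the IRE1PKO livers, against 29.2, 32.8 and 42.0 CPM in the IRE1fl livers. Every IRE1PKO library was below every IRE1fl library, and the means were 21.8 ± 4.12 CPM in IRE1PKO and 34.6 ± 6.61 CPM in IRE1fl (SD, n = 3 each). Its log2 fold change was -0.67 (SE 0.17, 95% confidence interval -1.06 to -0.29, edgeR adjusted p = 0.0409), and the level was 0.628 times that of IRE1fl. The call lay close to the threshold: it was lost under scaling by library totals alone (adjusted p = 0.0531), and without IRE1PKO library 1 (0.0993), IRE1PKO library 2 (0.114), IRE1fl library 2 (0.0858) or IRE1fl library 3 (0.108).

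Sult1d1, the enzyme for catecholamines, had 67.5, 76.6 and 80.4 CPM in the IRE1PKO livers, against 91.6, 109 and 112 CPM in the IRE1fl livers. The groups did not overlap, with the nearest libraries at 80.4 CPM in IRE1PKO and 91.6 CPM in IRE1fl. The means were 74.8 ± 6.60 CPM in IRE1PKO and 104 ± 11.04 CPM in IRE1fl (SD, n = 3 each). Sult1d1 fell by 0.48 on the log2 scale (SE 0.10, interval -0.71 to -0.25, edgeR adjusted p = 0.0153), a level 0.718 times that of IRE1fl. All other scalings, filters and tests kept the call, while it was lost without IRE1PKO library 1 (adjusted p = 0.0728), IRE1PKO library 2 (0.05001), IRE1fl library 2 (0.0612) or IRE1fl library 3 (0.0713).

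Sult1e1, the oestrogen sulfotransferase and the third gene of the cluster, had 2, 2 and 14 counts in the IRE1PKO livers and 3, 6 and 22 counts in the IRE1fl livers. Library 3 was the highest in both groups, and the groups overlapped. At 0.0513 to 0.342 CPM in IRE1PKO and 0.0831 to 0.593 CPM in IRE1fl it did not pass the filter, and without the filter its edgeR adjusted p was 0.62. No 50-base stretch of the Sult1b1, Sult1d1 or Sult1e1 transcripts was shared with the transcripts of another gene.

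Sult1c2, on chr17:53829637-53846339 (minus strand) and known for sulfonating small phenols, was the member that was higher. It had 9.29, 8.44 and 8.63 CPM in the IRE1PKO livers, against 5.40, 3.63 and 5.36 CPM in the IRE1fl livers. The lowest IRE1PKO library stood above the highest IRE1fl library, and the means were 8.79 ± 0.448 CPM in IRE1PKO and 4.80 ± 1.01 CPM in IRE1fl (SD, n = 3 each). The log2 fold change was 0.87 (SE 0.18, interval 0.47 to 1.27, edgeR adjusted p = 0.0125), a 1.83-fold higher level. All 9 other scalings, filters, tests and designs kept the call, with log2 fold changes of 0.87 to 0.94. Leaving out single libraries gave 0.71 to 0.96, with the call lost without IRE1PKO library 1 (adjusted p = 0.0619).

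Sult2a8, a bile acid sulfotransferase of mouse liver, lies on chr7:14410686-14446769, minus strand, next to Sult2a7 on chr7:14465051-14494230. It had 7696, 12770 and 15176 counts in the IRE1PKO livers and 18803, 25542 and 29079 counts in the IRE1fl livers, or 198, 347 and 371 CPM in IRE1PKO and 521, 725 and 784 CPM in IRE1fl. All IRE1PKO libraries were below all IRE1fl libraries, with library 1 the lowest of each group, and the means were 305 ± 93.9 CPM in IRE1PKO and 676 ± 138 CPM in IRE1fl (SD, n = 3 each). The log2 fold change was -1.15 (SE 0.27, interval -1.81 to -0.49), a level 0.451 times that of IRE1fl, and its edgeR adjusted p was 0.0513, just past the threshold of 0.05 on the side not called. The sign was negative in every alternative, while the call varied. The adjusted p was 1.63e-06 with the DESeq2 Wald test, 0.0161 with limma-voom, 0.0169 without robust fitting, 0.0450 with a filter at a mean of 1 CPM and 0.0484 with halved counts. It was 0.0517 with DESeq2 size factors, 0.0671 with library totals and 0.159 without a filter. Without IRE1PKO library 1 the log2 fold change was -0.91 (adjusted p = 0.0216), without IRE1fl library 1 it was -1.31 (0.0332), and the other libraries left out in turn gave an adjusted p of up to 0.167.

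RefSeq listed 2 promoters for Sult2a8, shown because this gene carried most of the difference in sulfotransferase counts.
Sult2a8, first promoter, chr7:14446538-14446837, minus strand: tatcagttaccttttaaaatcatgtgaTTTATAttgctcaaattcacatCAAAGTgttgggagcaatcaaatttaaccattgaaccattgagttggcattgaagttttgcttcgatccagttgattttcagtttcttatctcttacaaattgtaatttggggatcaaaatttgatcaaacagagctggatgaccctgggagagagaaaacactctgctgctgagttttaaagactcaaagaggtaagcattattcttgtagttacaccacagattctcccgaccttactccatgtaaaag
Sult2a8, second promoter, chr7:14438502-14438801, minus strand: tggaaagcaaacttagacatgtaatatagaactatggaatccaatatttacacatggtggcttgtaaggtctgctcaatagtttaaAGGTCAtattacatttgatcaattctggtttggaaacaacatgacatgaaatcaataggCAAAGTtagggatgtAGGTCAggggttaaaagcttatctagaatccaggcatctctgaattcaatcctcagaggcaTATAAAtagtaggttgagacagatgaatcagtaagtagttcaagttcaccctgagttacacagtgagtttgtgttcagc

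The first held the TATA box letters at bases 28 to 33, on the strand opposite to the printed one, and the HNF4 half-site at bases 50 to 55. The second held the nuclear receptor half-site at bases 87 to 92 and again at 161 to 166, the HNF4 half-site at bases 146 to 151, and the TATA box at bases 222 to 227, 29 bases before the start. The counts per gene do not say which of the promoters was in use.

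Sult5a1, a member whose substrates are not well known, lies on chromosome 8 (123140192 to 123158315, minus strand). It had 117, 60 and 192 counts in the IRE1PKO livers and 152, 415 and 416 counts in the IRE1fl livers, which gave 3.004, 1.63 and 4.69 CPM in IRE1PKO and 4.21, 11.8 and 11.2 CPM in IRE1fl. IRE1fl library 1 was below IRE1PKO library 3, so the groups overlapped, and the means were 3.11 ± 1.54 CPM in IRE1PKO and 9.06 ± 4.21 CPM in IRE1fl (SD, n = 3 each). The log2 fold change of -1.54 (SE 0.53) was the most negative of the 6 and had the widest interval, -2.86 to -0.22, with an edgeR adjusted p of 0.146. Without IRE1fl library 1 it was -1.88 (adjusted p = 0.0204).

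Sult1a1, the main phenol sulfotransferase, on chr7:126672865-126676432 (minus strand), had 262, 287 and 190 CPM in the IRE1PKO livers, against 269, 275 and 368 CPM in the IRE1fl livers. The groups overlapped, with IRE1PKO library 2 above both lower IRE1fl libraries. The means were 246 ± 50.3 CPM in IRE1PKO and 304 ± 55.6 CPM in IRE1fl (SD, n = 3 each), and the log2 fold change was -0.30 (SE 0.17, interval -0.70 to 0.09, edgeR adjusted p = 0.321). The interval leaves room for a fall to the size seen for Sult1b1 as well as for no change. In the Sult1a1 exons 61 bases (4.05%) overlap Sgf29 on the opposite strand and 6.58% of 50-base stretches are shared with Gm6939; the strand setting of the counting is not given in the sources used here, so a small part of its counts is uncertain.

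**Figure D2:**
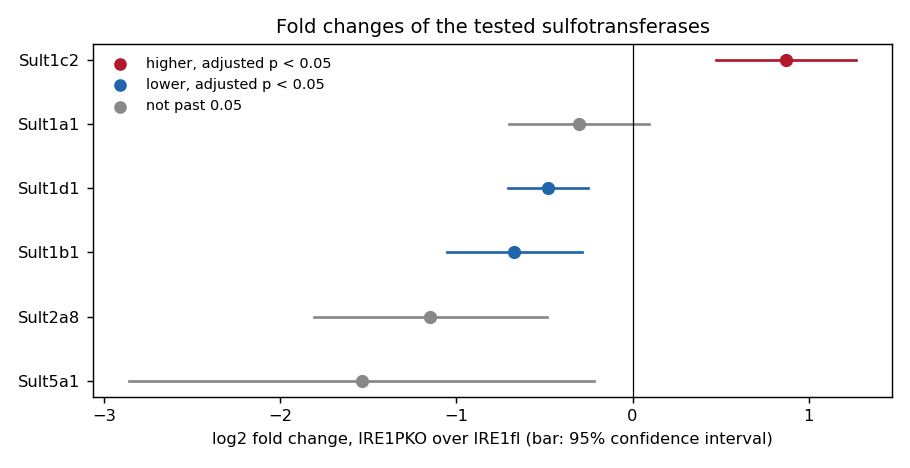
Log2 fold change, IRE1PKO over IRE1fl (x axis), of the 6 tested sulfotransferases, with 95% confidence intervals from the edgeR fit. Sult1c2 at 0.87 is above 0, Sult1d1 and Sult1b1 are below it, and Sult2a8 and Sult5a1 lie further below with wider intervals and an adjusted p over 0.05.

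The hydroxysteroid enzymes Sult2a1 and Sult2a2 and the amine sulfotransferase Sult3a1 were near or at 0. Sult2a1 (chr7:13796246-13837409) had 2, 1 and 0 counts in the IRE1PKO livers and 22, 4 and 0 counts in the IRE1fl livers. Sult2a2 (chr7:13733505-13779636) had 0, 4 and 0 counts in IRE1PKO and 3, 0 and 0 in IRE1fl. Sult3a1 (chr10:33857721-33879532) had 6, 0 and 0 counts in IRE1PKO and 0 in each IRE1fl library. Most of these counts came from single libraries, and 3 counts correspond to 0.0733 to 0.0851 CPM in these libraries, so levels under that could not be told from 0. These limits cover counting error only and take each count as a separate event. Low counts were more often even than odd in every library, so the limits may be too low. Without the filter on low counts, none of the 3 passed (edgeR adjusted p = 0.208 for Sult2a1, 0.951 for Sult2a2 and 0.396 for Sult3a1). Sult2a1 shares 33.2% and Sult2a2 62.1% of its 50-base stretches with other genes, mostly each other and Sult2a5, so the split of counts between them is uncertain.

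On a scale of CPM per kilobase of exon, Sult1a1 and Sult2a8 stood first in both groups. Sult1a1 had 163 ± 33.4 in IRE1PKO and 202 ± 36.9 in IRE1fl, and Sult2a8 had 92.9 ± 28.6 in IRE1PKO and 206 ± 42.0 in IRE1fl (CPM per kilobase, mean ± SD, n = 3 each). The exon lengths are those of GENCODE M21 and are approximate here, since the sources used here do not give the gene models behind the counts, so the order of genes with close levels and the shares below are approximate too. Between these genes the libraries did not overlap in the IRE1PKO livers, where Sult1a1 had 126 to 190 and Sult2a8 60.2 to 113, and overlapped in the IRE1fl livers, where Sult1a1 had 179 to 244 and Sult2a8 159 to 239 CPM per kilobase. Sult1d1 followed with 30.4 ± 2.68 in IRE1PKO and 42.4 ± 4.49 in IRE1fl, then Sult1b1 with 7.83 ± 1.48 in IRE1PKO and 12.5 ± 2.38 in IRE1fl. Sult1c2 had 4.76 ± 0.243 in IRE1PKO and 2.60 ± 0.548 in IRE1fl, and Sult5a1 had 0.703 ± 0.347 in IRE1PKO and 2.05 ± 0.954 in IRE1fl. The order of these 6 was the same in both groups except at the top, where the means of Sult1a1 and Sult2a8 in IRE1fl differed by less than their spread, and Sult1c2 and Sult5a1 in IRE1fl came close to each other, at 1.97 to 2.93 and 0.953 to 2.66 CPM per kilobase. The other 4 members averaged at most 0.236 CPM per kilobase in either group, with overlapping libraries.

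**Figure D3:**
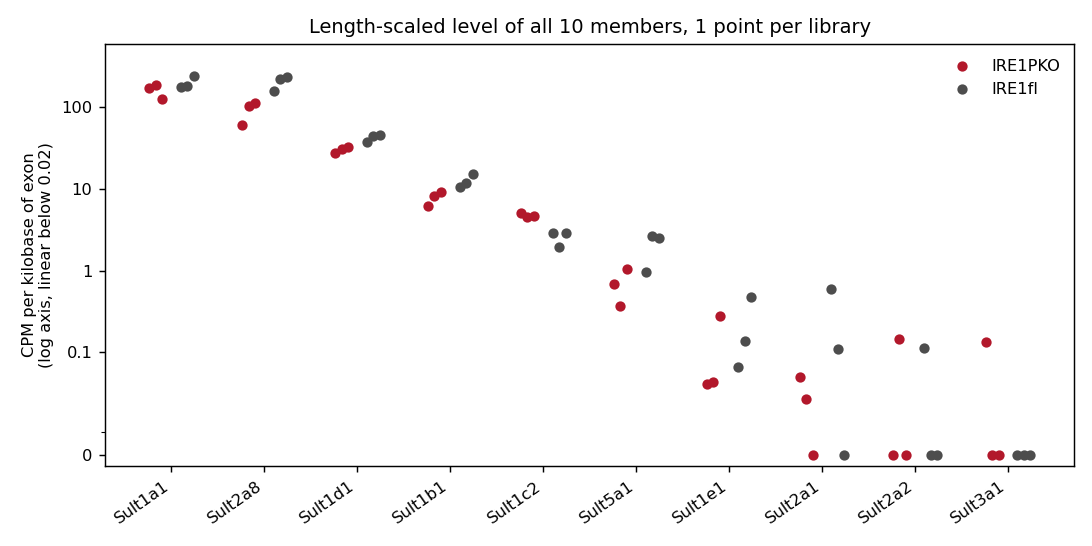
Length-scaled level of all 10 members in CPM per kilobase of exon (y axis, logarithmic and linear below 0.02), 1 point per library, IRE1PKO in red on the left and IRE1fl in grey on the right of each gene. Sult1a1 and Sult2a8 lie highest, near 60 to 244, and Sult1e1, Sult2a1, Sult2a2 and Sult3a1 lie below 0.6 with several libraries at 0.

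Summed over the 10 members, the level was 274, 340 and 287 CPM per kilobase in the IRE1PKO livers, against 390, 464 and 549 in the IRE1fl livers. The groups did not overlap. Within this sum Sult2a8 made up 21.99%, 31.0% and 39.4% in IRE1PKO and 40.7%, 47.6% and 43.4% in IRE1fl, and Sult1a1 63.5%, 55.9% and 43.9% in IRE1PKO and 45.8%, 39.3% and 44.5% in IRE1fl. The Sult2a8 share was lower in each IRE1PKO library than in each IRE1fl library, while the Sult1a1 share overlapped. Sult1d1 made up 10.2% ± 1.13 in IRE1PKO and 9.14% ± 0.743 in IRE1fl, Sult1b1 2.62% ± 0.499 in IRE1PKO and 2.66% ± 0.108 in IRE1fl, and Sult1c2 1.604% ± 0.249 in IRE1PKO and 0.568% ± 0.167 in IRE1fl (SD, n = 3 each). The shares within 1 sum depend on each other and are given without a test.

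The 6 tested members kept their sign in all fits to 5 of the 6 libraries. The number of members called ranged from 1 to 5: it was 1 without IRE1PKO library 1, IRE1PKO library 2, IRE1fl library 2 or IRE1fl library 3, 3 without IRE1PKO library 3, and 5 without IRE1fl library 1. Over all genes the called share was 4.26% without IRE1PKO library 1, 5.31% without IRE1PKO library 2, 8.72% without IRE1PKO library 3, 9.67% without IRE1fl library 1, 5.83% without IRE1fl library 2 and 5.15% without IRE1fl library 3, against 9.54% with all 6 libraries. The fits that called fewer members were also those that called fewer genes in all.

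**Figure D4:**
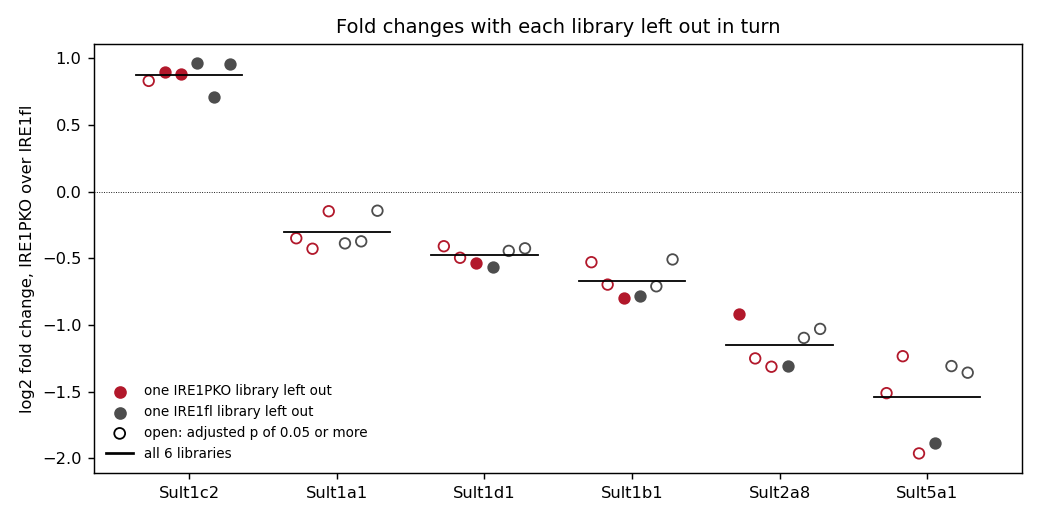
Log2 fold change, IRE1PKO over IRE1fl (y axis), of each tested member with 1 library left out (points, red for an IRE1PKO and grey for an IRE1fl library), beside the value from all 6 libraries (line). Filled points have an adjusted p under 0.05. All points of a gene lie on 1 side of 0, and Sult1c2 keeps 5 filled points of 6, more than any other member.

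Apart from Sult2a7, the remaining cytosolic sulfotransferase genes of the mouse were almost silent. Of 11 further genes in the table, Sult1c1, Sult2a6, Sult3a2 and Sult6b2 (4 genes) were at 0 in every library, and only Sult2a7, the neighbour of Sult2a8, was tested. Sult2a7 had 1.05, 1.30 and 1.98 CPM in the IRE1PKO livers and 1.38, 1.13 and 1.43 CPM in the IRE1fl livers, with overlapping groups and a log2 fold change of 0.14 (SE 0.33, interval -0.59 to 0.86, edgeR adjusted p = 0.841). Its sign turned without IRE1PKO library 3 (-0.16). Sult2a3, Sult2a4 and Sult2a5 had counts only in IRE1fl library 1, the library that also held the most Sult2a1 counts. Sult2b1, Sult4a1 and Sult6b1 had a few counts in libraries of both groups.

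The genes that supply PAPS and clear its by-product gave 1 higher and 1 lower call among 8 tested (median log2 fold change -0.04). Of all tested genes, 5.68% were called higher and 3.86% lower. Slc26a2, a sulfate transporter, had 4.11, 7.54 and 5.43 CPM in the IRE1PKO livers, against 2.46, 3.04 and 2.94 CPM in the IRE1fl livers, and was 2.02-fold higher (log2 1.02, SE 0.24, edgeR adjusted p = 0.0228). It lost the call with limma-voom (0.0504) and in 4 of the 6 fits without 1 library. Slc26a1, the sulfate and anion exchanger of hepatocytes, had 222, 224 and 180 CPM in the IRE1PKO livers, against 282, 254 and 288 CPM in the IRE1fl livers, and fell by 0.40 on the log2 scale (SE 0.11, edgeR adjusted p = 0.0416), a call that was lost in each fit without 1 library (0.0606 to 0.129), under scaling by library totals alone (0.0664) and without robust fitting (0.0543). The PAPS synthases, chosen after their values were seen, were not called. Papss1 had 20.8 ± 0.667 CPM in IRE1PKO and 17.4 ± 1.61 CPM in IRE1fl, and Papss2 had 175 ± 30.6 CPM in IRE1PKO and 223 ± 33.2 CPM in IRE1fl (SD, n = 3 each; edgeR adjusted p = 0.143 and 0.18).

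Among 10 tested genes of cysteine and sulfur metabolism, listed around the making of sulfate, 2 were lower and 0 higher (median -0.16). Over all tested genes 3.86% were lower and 5.68% higher. Cth, cystathionine gamma-lyase, had 138, 193 and 154 CPM in the IRE1PKO livers, against 346, 251 and 275 CPM in the IRE1fl livers, and fell by 0.85 on the log2 scale (SE 0.15, edgeR adjusted p = 0.00747). Got1, the cytosolic aspartate aminotransferase, had 134, 166 and 151 CPM in the IRE1PKO livers, against 311, 236 and 261 CPM in the IRE1fl livers, and fell by 0.84 (SE 0.12, edgeR adjusted p = 0.00187). The groups were apart for both genes, and both calls were kept in each fit without 1 library and in all 9 other alternatives. In this list Sqor was not matched by symbol.

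The membrane-bound sulfotransferases, which act on lipids, proteins and glycans in the Golgi and use the same donor, gave 2 higher and 1 lower call among 17 tested (median 0.07). The shares over all tested genes were 5.68% higher and 3.86% lower. Gal3st1, which makes sulfatide, had 6.03, 9.66 and 7.26 CPM in the IRE1PKO livers, against 1.16, 1.504 and 0.323 CPM in the IRE1fl livers, and was 7.68-fold higher (log2 2.94, SE 0.45, edgeR adjusted p = 0.00694). Its call was kept in each fit without 1 library and in all 9 other alternatives. Chst15, a chondroitin sulfate sulfotransferase, averaged 18.0 ± 2.17 CPM in IRE1PKO and 12.02 ± 1.23 CPM in IRE1fl (log2 0.59, SE 0.13, adjusted p = 0.0157). Tpst1, which sulfonates tyrosines of secreted proteins, averaged 15.01 ± 2.53 CPM in IRE1PKO and 25.4 ± 4.26 CPM in IRE1fl and fell by 0.76 on the log2 scale (SE 0.15, adjusted p = 0.0131; SD, n = 3 each). In both genes the groups were apart. Chst15 lost its call without IRE1PKO library 2 or IRE1fl library 3 (adjusted p up to 0.0733), and Tpst1 without IRE1fl library 3 (0.0553).

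Of 9 transporters that carry sulfate conjugates, bile acids or both across the hepatocyte membrane, 3 were higher and 1 lower (median 0.09). Among all tested genes 5.68% were higher and 3.86% lower. Abcc3, an exporter of the blood-facing membrane, averaged 390 ± 45.6 CPM in IRE1PKO and 190 ± 49.97 CPM in IRE1fl (SD, n = 3 each; log2 fold change 1.04, SE 0.20, edgeR adjusted p = 0.0153). Abcc4, an exporter of the same membrane, averaged 3.40 ± 0.283 CPM in IRE1PKO and 1.65 ± 0.204 CPM in IRE1fl (log2 fold change 1.04, SE 0.23, edgeR adjusted p = 0.0161). Slco1a4, an uptake transporter, averaged 66.6 ± 19.7 CPM in IRE1PKO and 32.2 ± 6.36 CPM in IRE1fl (log2 1.05, SE 0.24, adjusted p = 0.0479). Slco1a1, an uptake transporter for steroid sulfates, had 62.3, 61.0 and 122 CPM in the IRE1PKO livers, against 249, 437 and 435 CPM in the IRE1fl livers, and fell by 2.19 on the log2 scale (SE 0.41, edgeR adjusted p = 0.0391). Calls were lost in some fits without 1 library for each of the 4 genes, and without a filter on low counts also for Slco1a1 (0.0681) and Slco1a4 (0.143).

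**Figure D5:**
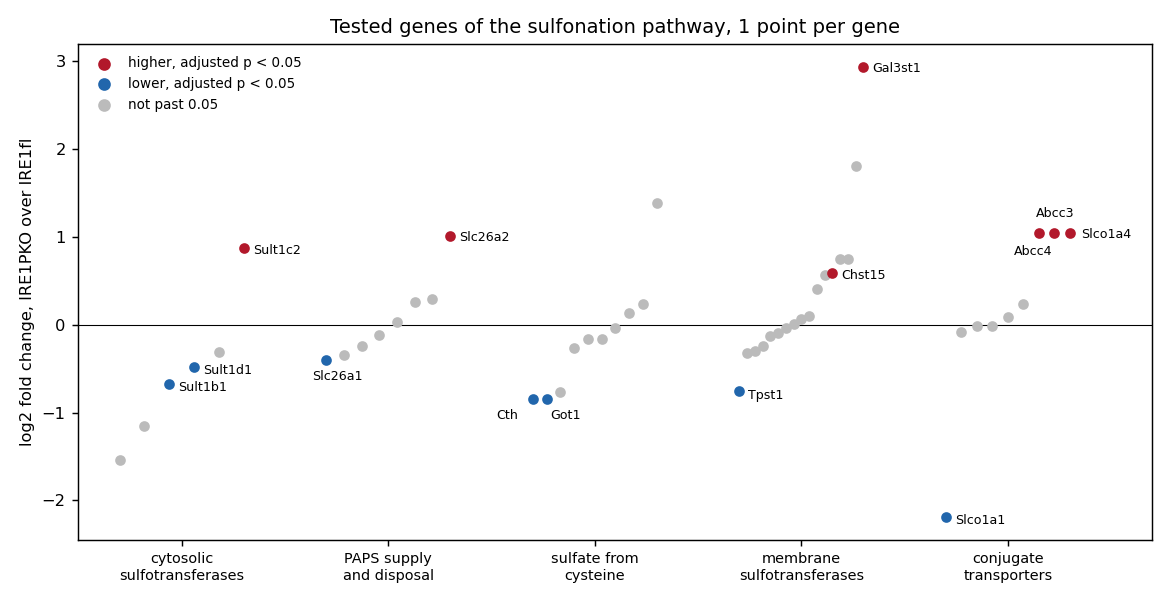
Log2 fold change, IRE1PKO over IRE1fl (y axis), of each tested gene of the members and of 4 sulfonation lists, ordered by value within each list, with called genes in red (higher) or blue (lower) and named. Each list holds genes on both sides of 0, and Gal3st1 at 2.94 and Slco1a1 at -2.19 lie furthest out.

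The neighbours of the members were looked at after the values were known. Ugt2a3, a glucuronosyltransferase gene 176144 bases from the chromosome 5 cluster, averaged 178 CPM in IRE1PKO and 266 CPM in IRE1fl and fell by 0.58 on the log2 scale (SE 0.12, edgeR adjusted p = 0.014), while the nearer Ugt2b38 averaged 17.1 CPM in IRE1PKO and 21.2 CPM in IRE1fl and did not pass (adjusted p = 0.133). Next to Sult2a7 the pseudogene Nlrp5-ps, 36422 bases away, averaged 0.218 CPM in IRE1PKO and 1.24 CPM in IRE1fl and fell by 2.47 (SE 0.55, edgeR adjusted p = 0.0176), whereas Sult2a7, between it and Sult2a8, did not pass. Further off, Jchain (928215 bases) and Utp3 (962868 bases) beside the chromosome 5 cluster were lower, with log2 fold changes of -1.48 and -0.35 (edgeR adjusted p = 0.0221 and 0.0327). Lig1, 1099253 bases from Sult2a8, was higher (1.17, edgeR adjusted p = 0.0278). The other neighbours examined there were not called (edgeR adjusted p = 0.143 to 0.959). These were Ugt2b37 and Rufy3 on chromosome 5, and Mzf1, Ube2m, Ehd2 and Napa beside Sult2a8 and Sult2a7. Over all tested genes 9.54% were called. No tested neighbour examined beside Sult1c2 or Sult5a1 was called, with 6 looked at for each.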

How the data were processed

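Poly(A) RNA of mouse liver was measured in 6 libraries, 3 IRE1PKO and 3 IRE1fl. The values are raw counts by gene symbol, which the authors deposited as 1 table; genotype and number in a column's name gave its sample. Per the submitters' processing notes the genome was mm10. For aligner, counting tool, strand setting and gene models, the answer is not given in the sources used here. Low counts were even 2.58 to 3.19 times as often as odd, and whether reads or fragments were counted is not stated. Totals were 35776219 to 39277435 counts per library, and 27 date-like symbols held 0.178% of counts.

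Of 35976 genes, 22427 had a count and 14954 passed edgeR's filterByExpr. After TMM scaling, edgeR 4.0.16 (under R 4.3.3) was used with its two-sided quasi-likelihood test with robust fitting. P-values were adjusted by Benjamini-Hochberg over the 14954 genes, and genes under 0.05 were called. CPM uses TMM-scaled totals of the tested genes, and CPM per kilobase divides by the exon length in GENCODE M21. The script was tested on simulated data. An exact permutation test of 3 against 3 cannot give p below 0.1, so genes were tested only in the model over all genes. The chi-square per gene between libraries of a group was 30.7 to 68.5, so none was a copy.

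The members and gene lists were chosen with earlier results of these data known. All members are named, and of each pathway list up to 4 called genes with the smallest p; of the other cytosolic sulfotransferases, all with a count; other genes are said to be chosen after their values were seen. Alternatives were DESeq2 size factors, library totals, a Wald test (DESeq2 1.42.0), voom (limma 3.58.1), no filter, a filter at 1 CPM on average, a block for the replicate number, no robust fitting, each library left out, and halved counts, added after the data were seen. The list of transcription regulators is not reported here.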

Additional observations from a re-analysis of the deposited data

How the results depend on the processing

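Over the 18 tested genes that the naming rule gave, without those chosen after their values were seen, 218 of the refitted fold changes kept their sign and side of the threshold, 42 lost the call, 9 gained it and 1 turned its sign, Sult2a7 without IRE1PKO replicate 3 (-0.16, with up to 0.32 in the other fits without 1 library). Leaving out 1 library in turn gave 653 to 1484 called genes, 398 to 868 higher and 255 to 616 lower, and 1 to 5 called sulfotransferases, 0 to 1 higher and 0 to 4 lower; the cause was not tested. Under scaling by library totals alone 1 sulfotransferase was lower in place of 2, and 1148 genes were higher and 415 lower (73.4% of calls higher), against 849 higher and 577 lower (59.5%) with TMM. The DESeq2 Wald test called 890 genes lower in place of 577; the cause was not tested. Over all genes no clear pairing by replicate number was seen. Deviations of same-numbered libraries correlated at 0.064, -0.017 and 0.084, those of differently numbered libraries at -0.09 to 0.027. Not every library correlated best with its own number, and pairing or a shared batch in single genes was not tested. With the replicate number as a block, 1865 genes and 4 sulfotransferases were called, with Sult2a8 added (-1.18, edgeR adjusted p = 7.27e-05), and Slco1a4 lost its call. Depth limits Sult1e1, Sult2a1, Sult2a2 and Sult3a1, which had at most 22 counts in any library.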
